A study of Mus musculus with 59 samples.

Results

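Heterozygous Dyrk1a mutant mice were compared with wild-type mice, both given vehicle, by RNA sequencing in the prefrontal cortex. The comparison used 20 of the 59 libraries of the study, chosen by their labels: 10 from Dyrk1a+/I48X heterozygotes (5 females and 5 males) and 10 from wild-type mice (5 females and 5 males). Every mouse was on the C57BL/6J strain, had received vehicle through the milk of the dam from postnatal day 3 to day 24, and was analysed at day 25. The other 39 libraries came from mice given lithium or fluoxetine in the same way. They served to look at the same genes in other animals, and otherwise entered only the alternative fits over all 59 libraries. Neither litters nor dams are named in the labels. A p-value here therefore covers the spread among these animals only, and litter and genotype cannot be told apart. Libraries were strand-specific and made from polyadenylated RNA, with 24391022 to 32464242 counts each in the 20 vehicle mice. Levels are normalised counts, and differences are log2 fold changes, heterozygous minus wild type, with their standard error after ±.

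DYRK1A is a protein kinase that phosphorylates serine and threonine residues of many substrates, among them splicing factors, cell cycle regulators, the transcription factor NFAT and microtubule proteins. It acts in a dose-dependent way: an extra copy is part of Down syndrome, and loss of a copy in people causes a syndrome with small head size, intellectual disability and autism. The prefrontal cortex lies next to the olfactory bulb in the mouse, and the bulb holds neurons with transcripts that cortex has little of, such as those of mitral and tufted cells, dopaminergic periglomerular cells and newly arrived granule cells. Doc2g, a protein with C2 domains, and Cdhr1, a cadherin-related membrane protein, mark mitral and tufted cells. The question here was which genotype differences remained once the level of these transcripts in each library was allowed for.

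The label I48X names a change of the isoleucine at residue 48 to a stop. The stretch of the reference coding sequence around that residue is shown because it fixes where the mutant protein would end. In GENCODE M21 on GRCm38 the isoleucine codon is in exon 3 of Dyrk1a-201, at chr16:94659628-94659630 on the plus strand, and 4 of the 5 coding transcripts of the gene have isoleucine there. Coding bases 112 to 174 read, 5′ to 3′, with codon 48 in capitals:
Dyrk1a codon 48: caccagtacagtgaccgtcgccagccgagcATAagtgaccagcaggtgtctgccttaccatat
The codon lies near the start of a coding sequence of 2289 bases. The mutant base change itself was not given in the labels and is not shown.

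The first gene examined was the mutated one. On chromosome 16, from 94570010 to 94695517, Dyrk1a stood at 2412.8, 2373, 2300.6, 2392.1 and 2296.7 in heterozygous females and at 2279.6, 2415.1, 2239.7, 2287.6 and 2259 in heterozygous males. Wild-type females had 2194.4, 2327, 2176.5, 2203.1 and 2185, and wild-type males had 2162.8, 2293.2, 2278.4, 2238.8 and 2256.3. The genotypes overlapped, and every heterozygous mouse was above the wild-type median of 2221. With sex as a block the difference was 0.06 ± 0.02 (unadjusted p = 0.0154, limma adjusted p = 0.141), and at equal bulb marker level it was 0.08 ± 0.02 (unadjusted p = 0.00379, adjusted p = 0.322). Values sum all transcripts of the gene from both alleles, so they do not check the genotype labels.

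Olfactory bulb transcripts varied widely between vehicle libraries. Doc2g (chromosome 19, 4003313 to 4007005) was at 1112.6, 2774.7, 8272.6, 7700 and 4804.5 in heterozygous males and at 850.58, 115.39, 137.04, 143.75 and 170.75 in wild-type males. The 2 male groups did not overlap, as was so for 2123 genes (12.2%) in males and 123 (0.708%) in females. In females it was at 399.36, 3650.5, 2484.2, 125.9 and 1934.5 in heterozygotes and at 3106.3, 1591.6, 378.24, 4534.3 and 178.43 in wild-type mice, and these groups overlapped almost completely. Cdhr1 (chromosome 14, 37077857 to 37098347) followed the same order, with 1591.9 to 10586 in heterozygous males, 116.36 to 996.96 in wild-type males, 243.54 to 5532.8 in heterozygous females and 294.7 to 6695.4 in wild-type females. Among genes tested, those whose log2 values tracked Doc2g most closely over the 20 libraries were the calcium-binding protein Calb2 (Pearson r = 0.994) and Cdhr1 (r = 0.992), followed by Map3k1, Tshz1, Pbx3 and Dlx1 with r of 0.975 to 0.977. These coefficients are a description over libraries of the same depth range.

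**Figure D1:**
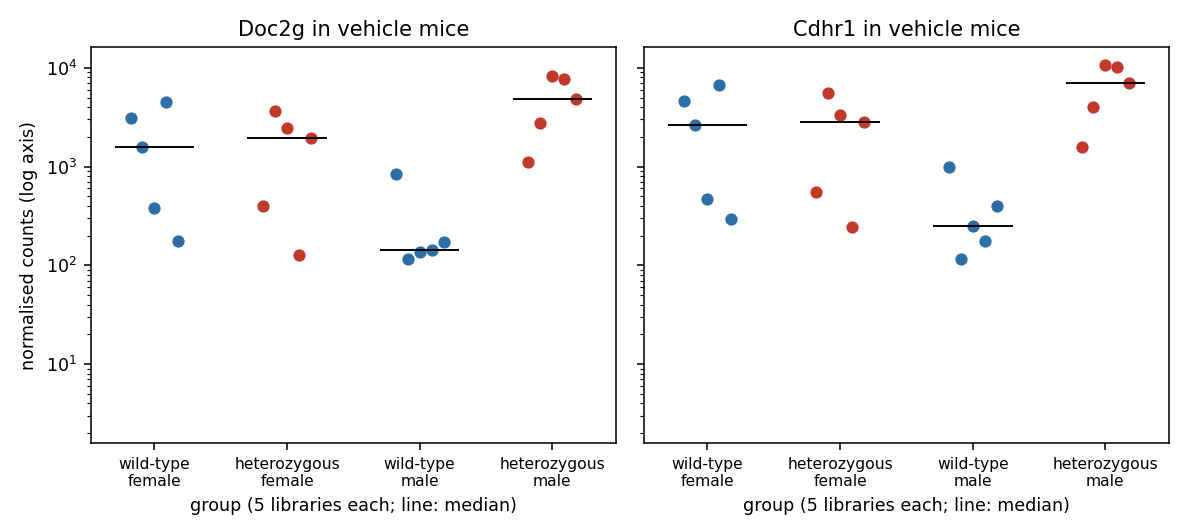
Normalised counts (log axis) of Doc2g and Cdhr1 in each vehicle library, by genotype and sex, with 5 libraries a group and the median as a line. Heterozygous males lie above all wild-type males in both genes, and the female groups span the same range.

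The mean of log2(value + 1) of Doc2g and Cdhr1, centred on the 20 libraries, is called the bulb marker level below. It was 2.0 ± 1.17 in heterozygous males and -2.26 ± 1.15 in wild-type males (SD, n = 5 each), so that heterozygous males began at 0.20, above a wild-type maximum of -0.33. In females it was 0.05 ± 1.98 and 0.20 ± 2.0 (SD, n = 5 each). Defining genes of cortical projection neurons were present at high level in all 20 libraries: Camk2a, the synaptic kinase subunit, ran from 44747 to 101410, and Neurod6, a transcription factor of pyramidal neurons, from 639.17 to 4195.5. The 2 libraries with the highest Doc2g, heterozygous male replicates 3 and 4, had the lowest Neurod6, 639.17 and 812.1. In bulk tissue, fewer cells of a type and less RNA per cell cannot be told apart.

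The bulb marker level ran along the main axis of variation of these libraries. A principal component analysis of 17361 genes, made without the 14 genes of the bulb list, gave a first component with 39.7% of the variance and a second with 9.05%. The first component was correlated with the marker level on the linear scale, set to a mean of 1 (Pearson r = 0.987 and Spearman rho = 0.962, n = 20). Both had a 2-sided permutation p of 1e-05, which is the smallest value 100000 resamplings allow and was the same after Benjamini-Hochberg adjustment over 2 relations. Leaving out the 2 libraries with the most extreme marker level gave r = 0.977. Within heterozygotes alone r was 0.99 and within wild-type mice 0.974. With the log2 level r was 0.923 and rho 0.962.

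**Figure D2:**
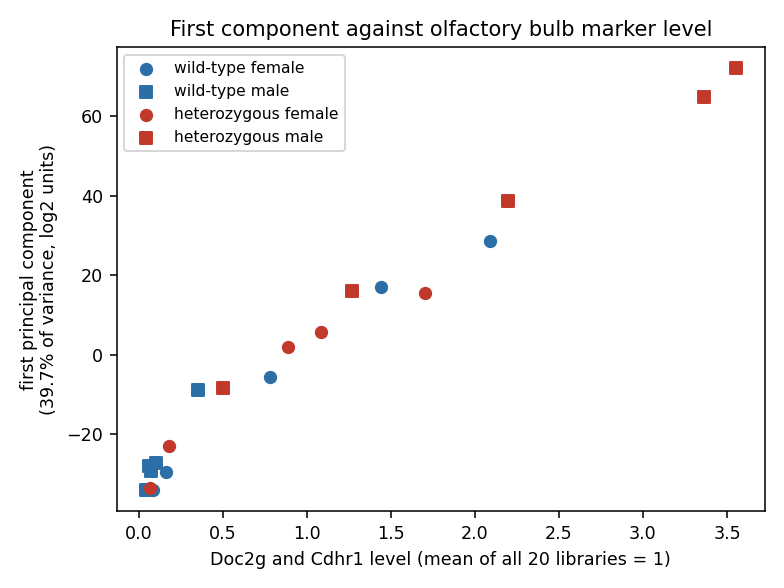
Position on the first principal component (log2 units) against the linear Doc2g and Cdhr1 level (mean of the 20 libraries set to 1), 1 point a library, coloured by genotype and shaped by sex. The points form 1 rising band with r = 0.987, and heterozygous male replicates 3, 4 and 5 lie at its upper end.

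Without allowing for the markers, bulb transcripts had large average differences between genotypes, and none of 17375 genes passed the test. Doc2g was higher by 2.06 ± 0.83 (unadjusted p = 0.0223, limma adjusted p = 0.15) and Cdhr1 by 2.04 ± 0.81, and all 14 bulb list genes had an unadjusted p under 0.05, with a median of 1.51 against -0.002 over all genes tested. Limma with sex as a block called 0 genes (0%) at an adjusted p under 0.05, and edgeR called 0 too. The smallest limma adjusted p was 0.0721. An unadjusted p under 0.05 was found for 4686 genes (27%), of which 2327 were higher (13.4%) and 2359 lower (13.6%) in heterozygotes. DESeq2 called 600 genes, 332 higher and 268 lower.

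Among genes with a mean level at or above the median, without sex-linked and predicted genes, the 6 of smallest p in this fit held no gene of the bulb list. Cacna1g, the pore subunit of the T-type calcium channel Cav3.1, ran from 3948.4 to 4646.3 with a median of 4137.1 in heterozygotes and from 3267.1 to 4022.8 with a median of 3537.8 in wild-type mice. Only 1 wild-type mouse, a female, lay inside the heterozygous range. The difference was 0.23 ± 0.04 (unadjusted p = 1.30e-05, limma adjusted p = 0.0721). E4f1, a transcription factor with ubiquitin ligase activity, ran from 626.56 to 849.27 with a median of 706.41 in heterozygotes and from 535.04 to 629.73 with a median of 578.78 in wild-type mice, a difference of 0.29 ± 0.05 (adjusted p = 0.0721). Srrm3, a factor for neuronal microexon splicing (0.18 ± 0.03), the PHD finger protein Phf12 (0.18 ± 0.04) and the deubiquitinase Usp19 (0.18 ± 0.03) were higher, and Dpy19l3, a mannosyltransferase (-0.24 ± 0.05), was lower. Log2 values of these 6 genes varied with Doc2g over the libraries. Pearson r ran from 0.515 (Srrm3) to 0.712 (Cacna1g) in the higher genes and was -0.755 in Dpy19l3.

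The sexes were then fitted apart, with 1 mean for each of the 4 groups. In males 2985 genes rose (17.2%) and 3725 fell (21.4%) in heterozygotes by limma, while in females limma called 0 of 17375 genes (0%), with 751 at an unadjusted p under 0.05 (4.32%), and edgeR called 0. Doc2g rose by 4.28 ± 0.96 in males (adjusted p = 0.00833) and differed by -0.16 ± 0.96 in females. The difference between the sexes was itself tested: limma called 0 genes (0%), with 5754 at an unadjusted p under 0.05 (33.1%), and edgeR called 0. Under the same limits on level and kind of gene, those of smallest p in that test were Scara3, Shtn1, Mettl7a1, Golm1, Clmn and Nr1d1, each with an adjusted p of 0.0723. Scara3, a scavenger receptor family member, differed by -0.47 ± 0.10 in males and 0.24 ± 0.10 in females, and Shtn1, a protein of growing axons, by 0.36 ± 0.07 in males and -0.12 ± 0.07 in females.

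The 6710 genes called in males (38.6%) held most members of the neuronal lists. Of 14 bulb genes all 14 rose, with a median of 3.19. The leading member was Eomes, a transcription factor of mitral and tufted cells, at 4.62 ± 1.17. Of 13 immature neuroblast genes 12 rose, with a median of 1.28. Dlx2, a transcription factor of migrating interneurons, was at 360.3, 489.23, 1277.5, 1254.1 and 917.44 in heterozygous males and at 191.41, 129.93, 177.55, 164.16 and 184.97 in wild-type males, a rise of 2.18 ± 0.45. Of 19 cortical projection genes 14 fell and 3 rose, with a median of -0.55. Neurod6 fell by 1.12 (SE 0.33), and Fezf2, which specifies deep-layer neurons, fell as well (-1.09 ± 0.32). In the interneuron and GABA list of 18 genes, the somatostatin gene Sst (-1.10 ± 0.24), Pvalb (-0.90 ± 0.27) and Vip (-0.52 ± 0.10) were among the 7 that fell, while the GABA-synthesis gene Gad1 (1.13 ± 0.27), the vesicular GABA transporter Slc32a1 (0.89 ± 0.18) and Reln (1.09 ± 0.28) were among the 6 that rose.

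Synaptic lists followed the projection neuron list in males. Of 34 excitatory postsynapse genes 22 fell and 4 rose, with a median of -0.35, including the glutamate receptor subunit Grin2a (-0.72 ± 0.18) and Camk2a (-0.63 ± 0.15). Of 30 presynaptic release genes 22 fell and 1 rose, with a median of -0.36, including Rims1 (-0.78 ± 0.18) and Sv2b (-0.90 ± 0.25). Of 29 potassium channel genes 14 fell and 7 rose. In females the medians of these 3 lists were 0.03, 0.06 and 0.06, and none of their members passed. The median over all genes tested was -0.007 in males. In males the bulb marker level separated the genotypes without overlap, so the part of the genotype and of the marker level in these male differences cannot be told apart. Taking males alone, the variance inflation of genotype by the marker level was 5.20. The fit with the marker level as a covariate instead used all 20 libraries and a slope shared by both sexes. In it limma called 0 genes in males (0%, 1226 at an unadjusted p under 0.05, 7.06%).

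**Figure D3:**
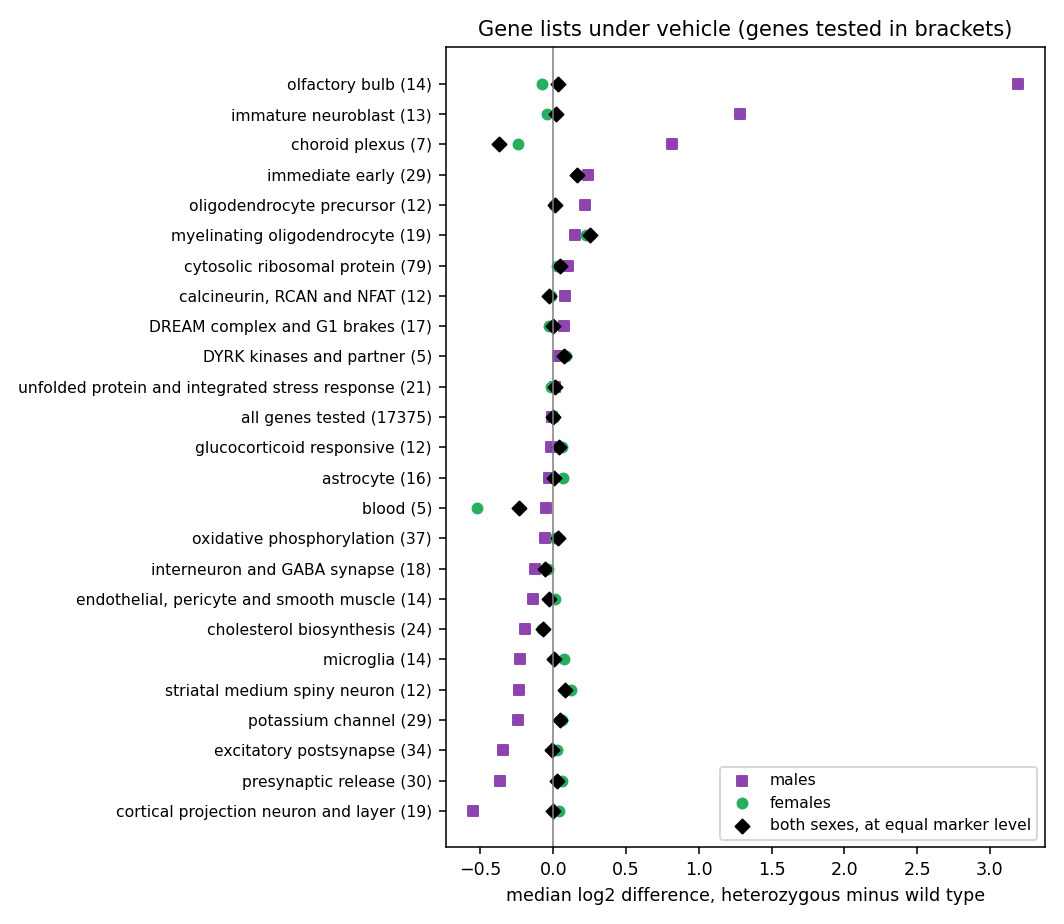
Median log2 difference, heterozygous minus wild type, of each gene list in males (squares), in females (circles) and in both sexes at equal bulb marker level (diamonds), with the number of genes tested in brackets. The bulb and neuroblast lists reach 3.19 and 1.28 in males and lie near 0 in females and at equal log2 marker level. The bulb list includes Doc2g and Cdhr1, which make up the marker level, so part of its value at equal level is built in.

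With the log2 bulb marker level added to sex and genotype, the median difference of the 12 bulb list genes other than Doc2g and Cdhr1 went from 1.42 to 0.06, and the count of genes at an unadjusted p under 0.05 went from 4686 to 1701 (9.79%), 954 higher (5.49%) and 747 lower (4.3%). Limma called 0 genes (0%), with a smallest adjusted p of 0.13, and edgeR called 0 with 1644 at an unadjusted p under 0.05. The genotype term had a variance inflation of 1.32. The median absolute difference of all genes went from 0.105 to 0.0565, and the median standard error from 0.0767 to 0.0671. With the linear marker level all 12 bulb list genes other than Doc2g and Cdhr1 were above 0, with a median of 0.25. Doc2g, itself part of that level, was at 0.41 ± 0.45. None of the 12 other genes had an unadjusted p under 0.05 with the linear level. Whether a bulb difference remained in them as a set was not tested. In that fit limma called 2 genes (0.0115%), and 2007 had an unadjusted p under 0.05 (11.6%). In females the marker level hardly differed between genotypes (variance inflation 1.002, females alone). There the log2 level, with a slope shared by both sexes, gave 0 calls (0%) and 1187 genes at an unadjusted p under 0.05 (6.83%).

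Of the 4686 genes at an unadjusted p under 0.05 without the covariate, 935 also had one with the same sign at equal log2 marker level, 1184 at equal linear level, and 866 with both. Of all 17375 genes tested, 1547, 1706 and 1285 had one with the sign of the fit without the covariate. The fits use the same libraries, so part of this overlap is built in. The median share of the difference kept by the 4686 genes was 41.1% with the log2 level, against 29.4% over all genes tested. The 100 genes of smallest p kept a median of 75.8%. The slope of each gene on the linear marker level was also taken in the 39 lithium and fluoxetine libraries, which share no mouse with these 20: of the 4686 genes, 4491 (95.8%) had a vehicle genotype difference of the same sign as that slope, against 81.8% of all genes tested. Of the genes called in males, 98% did, and they kept a median of 15.3% of their average difference. In the vehicle libraries 4845 genes rose (27.9%) and 5322 fell (30.6%) with the linear marker level by limma (58.5% in all), and 96.2% of these had a slope of the same sign in the other 39 libraries, against 84.3% of all genes.

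The 2 genes called with the linear level were Crocc and Gm45351, and neither was called with the log2 level. Crocc (chromosome 4, 141016637 to 141060550), which encodes rootletin of the ciliary rootlet, ran from 1438.3 to 2222.9 with a median of 2010.8 in heterozygotes and from 1479.1 to 2019 with a median of 1691.7 in wild-type mice. Above all wild-type mice lay 4 heterozygous females, with 2222.9, 2164.9, 2199.1 and 2194.6, and 1 heterozygous male, with 2079.1, while female replicate 2 was at 1615.6. The difference was 0.17 ± 0.08 without the covariate (adjusted p = 0.191), 0.31 ± 0.07 at equal log2 level (adjusted p = 0.25) and 0.33 ± 0.05 at equal linear level (adjusted p = 0.0245). Leaving out 1 library at a time kept the call in 10 of 20 fits, with adjusted p from 0.00258 to 0.105. In males the difference without the covariate was 0.003 ± 0.11. The predicted gene Gm45351, low at 14.729 to 31.072 in heterozygotes and 26.216 to 46.133 in wild-type mice, was lower by 0.79 (SE 0.13, linear level, adjusted p = 0.0381), and was called in 4 of 20 such fits. Without heterozygous female replicate 2, limma called 19 genes with the linear level. At equal log2 level Crocc differed by 0.07 ± 0.05 in lithium mice and 0.03 ± 0.14 in fluoxetine mice. Gm45351 differed by -0.04 ± 0.16 and 0.19 ± 0.19 there, and no unadjusted p of either gene was under 0.05.

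The 10 genes in each direction taken by smallest p at equal log2 level with a mean level at or above the median, are given next. None passed, with adjusted p from 0.218 to 0.274. Among those higher in heterozygotes, Ucp2, Crocc, Tle2 and E4f1 had the largest values, and among those lower Luzp2, Gsta4, Tmem263 and Igfbp3 did. Tle2, a Groucho-family corepressor, went from 0.51 ± 0.11 to 0.29 ± 0.07 with the covariate, and Cacna1g from 0.23 ± 0.04 to 0.17 ± 0.04, whereas Adgrb1, an adhesion receptor at synapses, went from 0.10 ± 0.04 to 0.15 ± 0.03. The splicing recycling factor Sart3 (0.15 ± 0.03), the cadherin Cdh22 (0.13 ± 0.03), Srrm3 (0.17 ± 0.04) and Tmem259 (0.15 ± 0.03) complete the higher group.

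Among the lower genes, Igfbp3, which binds insulin-like growth factors, ran from 453.2 to 589.51 with a median of 539.4 in heterozygotes and from 536.72 to 676.58 with a median of 590.97 in wild-type mice. Its difference at equal level was -0.20 ± 0.04 (unadjusted p = 7.27e-05, adjusted p = 0.218). Gsta4, a glutathione transferase for lipid aldehydes, ran from 580.18 to 745.87 in heterozygotes and from 677.03 to 870.36 in wild-type mice, a difference of -0.23 ± 0.05 (adjusted p = 0.264) that was close to its value without the covariate, -0.23 ± 0.05. Luzp2, a leucine zipper protein, was at -0.32 ± 0.07, where heterozygous female replicate 2, at 6958.4, and wild-type male replicate 1, at 10132, stood above their groups. The remaining lower genes, Lims1, Tmem263, Abhd5, Agps, Tram1, Sh3glb1 and Znrf2, lay between -0.22 and -0.13. Among them Abhd5 activates triglyceride lipolysis, Agps makes ether lipids and Tram1 belongs to the translocation channel of the endoplasmic reticulum.

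**Figure D4:**
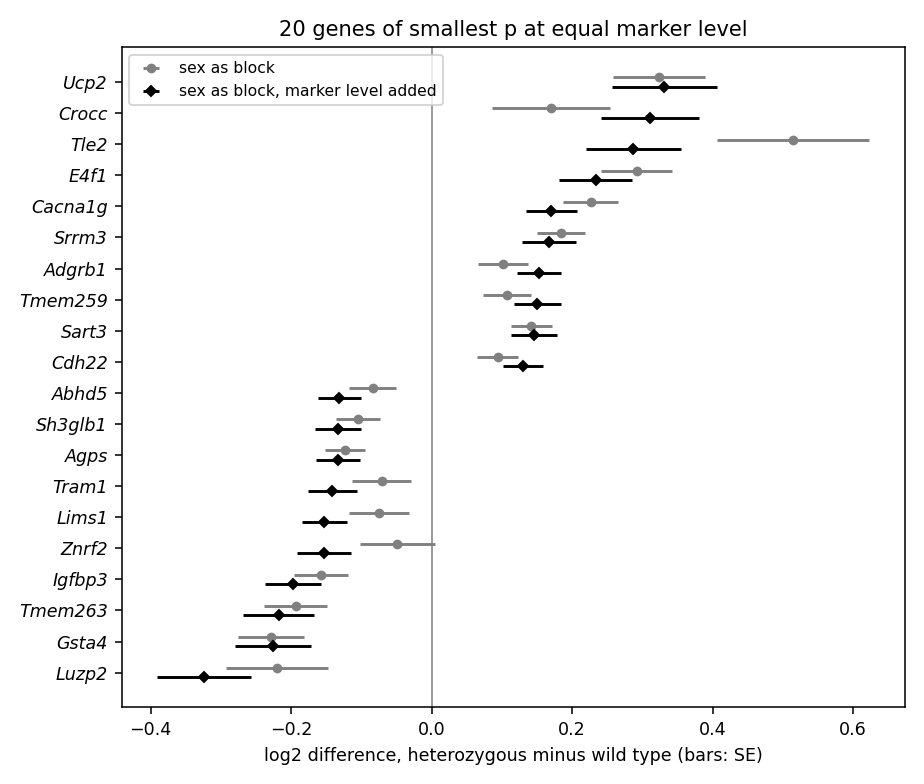
Log2 difference, heterozygous minus wild type, of the 20 genes of smallest p at equal bulb marker level, with sex as a block (circles) and with the marker level added (diamonds), and the SE as bars. Every gene keeps its sign, and Tle2 moves most, from 0.51 to 0.29.

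The same 20 genes were looked at in the lithium and fluoxetine mice, at equal bulb marker level and with no mouse shared with the vehicle groups. Under lithium 13 of 20 had the same sign and under fluoxetine 9, with 8 in both, and 1 of 20 had an unadjusted p under 0.05 with the same sign in each. Over all genes tested the same sign was found for 51% and 49%. The same sign with an unadjusted p under 0.05 was found for 1043 of 17375 genes under lithium and 618 under fluoxetine. Of the 1701 genes at an unadjusted p under 0.05 in vehicle mice, 51% and 43.8% had the same sign. The share of these genes with the same sign was thus close to, or under, that of all genes.

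The 1 gene of the 20 with an unadjusted p under 0.05 in both treated sets was Ucp2 (chromosome 7, 100493337 to 100502020), an uncoupling protein of the inner mitochondrial membrane. Under vehicle it ran from 577.34 to 809.62 with a median of 733.16 in heterozygotes and from 508.09 to 658.16 with a median of 577.03 in wild-type mice, and 9 of 10 heterozygotes lay above all wild-type mice. The difference was 0.32 ± 0.07 without the covariate and 0.33 ± 0.07 with it (unadjusted p = 0.000256, adjusted p = 0.25). In females it was 0.38 ± 0.09 and in males 0.27 ± 0.09 without the covariate. Under lithium Ucp2 was at 819.1 ± 73.0 against 646.6 ± 56.6 (SD, n = 10 each), a rise of 0.37 ± 0.06 at equal marker level (limma adjusted p = 0.0231), 1 of 2 genes called there (0.0115%). Under fluoxetine it was at 968.6 ± 279 (SD, n = 10) against 629 ± 51.6 (SD, n = 9), a difference of 0.43 ± 0.10 (unadjusted p = 0.000395, adjusted p = 0.642, with 0 of all genes called, 0%), and 0.41 ± 0.09 without heterozygous male replicates 3 and 4, which stood at 1448.3 and 1439.2 (adjusted p = 0.107).

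No overlap was found for 5 genes (0.0288%) between the 10 heterozygous and the 10 wild-type vehicle mice. The splicing factors Sart3 (958.79 to 1090.9 against 860.36 to 956.17) and Snrpf (408.96 to 544.63 against 335.54 to 401.77) and the RNA-binding protein Dazap1 (882.07 to 1216.9 against 723.66 to 876.52) were higher. The X-linked genes Fancb, of DNA crosslink repair (34.805 to 48.72 against 49.208 to 65.508), and Timm8a1, of mitochondrial import (281.92 to 333.11 against 336.63 to 409.43), were lower. None of the 5 had an unadjusted p under 0.05 in lithium mice or in the full set of fluoxetine mice. Sart3 had the opposite sign under fluoxetine, -0.08 ± 0.04. Without heterozygous fluoxetine male replicates 3 and 4 its limma unadjusted p was 0.0344 (adjusted p = 0.321).

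The DYRK family and the partner Dcaf7 had small differences at equal marker level. Dcaf7, a WD40 adaptor that binds DYRK1A, ran from 8442.4 to 9573.1 with a median of 9057.4 in heterozygotes and from 7526.3 to 8645.3 with a median of 8246.8 in wild-type mice, and 9 of 10 heterozygotes lay above all wild-type mice. Its difference was 0.11 ± 0.03 under vehicle (unadjusted p = 0.00134, adjusted p = 0.305), 0.10 ± 0.03 under lithium (unadjusted p = 0.00231) and 0.10 ± 0.04 under fluoxetine (unadjusted p = 0.0103). Dyrk1b, the closest relative of Dyrk1a, ran from 669.74 to 749.18 with a median of 728.35 in heterozygotes and from 586.23 to 718.65 with a median of 644.61 in wild-type mice. Its difference was 0.12 ± 0.04 under vehicle (unadjusted p = 0.00421, adjusted p = 0.322), 0.10 ± 0.03 under lithium and 0.10 ± 0.04 under fluoxetine. Dyrk1a itself was at 0.08, 0.11 and 0.10 in the same order. Dyrk2 and Dyrk3, kinases of another branch, went from -0.32 and -0.27 without the covariate to -0.08 and -0.05 with it. Of 5 family genes tested, 3 were higher and 0 lower at an unadjusted p under 0.05, against 9.79% of all genes in either direction, and none passed. In males, without the covariate, Dcaf7 (0.20, adjusted p = 0.00833) and Dyrk1b (0.17, adjusted p = 0.0149) rose and Dyrk2 and Dyrk3 fell.

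**Figure D5:**
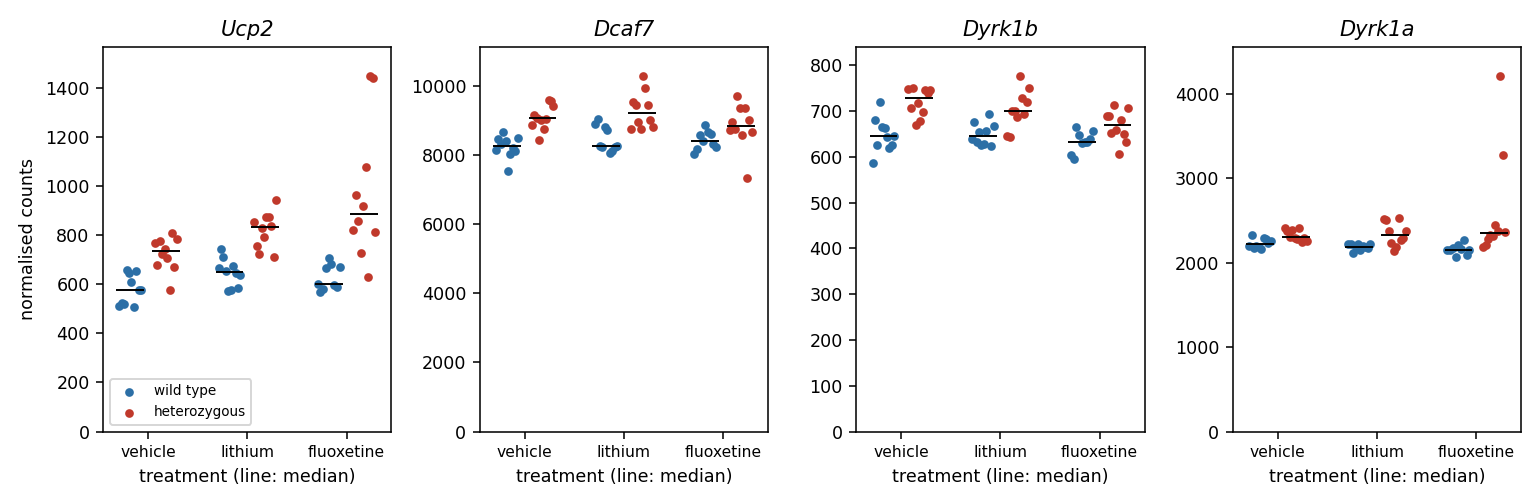
Normalised counts of Ucp2, Dcaf7, Dyrk1b and Dyrk1a in each of the 59 libraries by treatment and genotype, with the median as a line and axes from 0. Heterozygous medians lie above wild-type medians in each treatment, and 2 heterozygous fluoxetine males stand apart in Ucp2 and Dyrk1a.

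Lists of pathways and cell types were then read at equal marker level, where no member of any list passed. Cholesterol biosynthesis was the list with the largest share of lower genes: 10 of 24 were lower and 1 higher at an unadjusted p under 0.05, with a median of -0.07, against 4.3% of all genes lower and a median of 0.001. Without the covariate 13 were lower and 0 higher, where 13.6% of all genes were lower and 13.4% higher. Hmgcs1, which makes the precursor of mevalonate, ran from 6515.3 to 10824 with a median of 9276.7 in heterozygotes and from 9290.1 to 12728 with a median of 11090 in wild-type mice. Its difference was -0.30 ± 0.07 without and -0.17 ± 0.06 with the covariate (unadjusted p = 0.01). Idi1, the isopentenyl isomerase, ran from 1848.2 to 2353.9 with a median of 2008.8 in heterozygotes and from 2127.6 to 2680.7 with a median of 2371.8 in wild-type mice. Its difference was -0.20 ± 0.05 (unadjusted p = 0.00176). Cyp51 (-0.15 ± 0.04), Nsdhl (-0.14 ± 0.05), Msmo1 (-0.18 ± 0.07) and Lss (-0.11 ± 0.04), enzymes of the later sterol steps, were also lower, and the isomerase Ebp was higher (0.13 ± 0.06). In lithium mice 11 of 24 were lower and 0 higher with a median of -0.09, where 6.77% of all genes were lower. In fluoxetine mice 2 were lower with a median of -0.04, where 4.28% of all genes were lower. Neurons and glia both make cholesterol in the brain, and the source of these transcripts was not tested.

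Myelin genes had the largest positive median of the lists at equal log2 level. Of 19 myelinating oligodendrocyte genes 8 were higher at an unadjusted p under 0.05 and the median was 0.25, against 5.49% of all genes higher. These include Opalin (0.39 ± 0.13), the myelin-associated glycoprotein Mag (0.31 ± 0.12) and Cnp (0.24 ± 0.11). With the linear level 1 of 19 was higher (6.37% of all genes), with a median of 0.19. The mean log2 deviation of the list was -0.80 in wild-type male replicate 1 and -0.41 in wild-type female replicate 3, the 2 lowest of the 20 libraries, and the part of these libraries in the list's difference was not tested. In lithium mice the median had the other sign, -0.36, with 7 of 19 lower, where 6.77% of all genes were lower. Of 12 oligodendrocyte precursor genes 2 were higher and 0 lower, with a median of 0.01 and 7 of 12 above 0: the transcription factors Olig1 (0.22 ± 0.06) and Olig2 (0.22 ± 0.08).

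Several neuronal lists that had moved in males had medians near 0 at equal marker level, where 5.49% of all genes were higher and 4.3% lower at an unadjusted p under 0.05. Excitatory postsynapse genes had a median of -0.01 with 3 higher and 2 lower, presynaptic genes 0.03 with 3 higher and 2 lower, and cortical projection genes 0.001 with 1 higher and 0 lower. Potassium channel genes had 4 higher and 0 lower with a median of 0.05. Among them were Kcnt1, a sodium-activated channel (0.16 ± 0.05), and Kcna1, a Kv1 channel of axons (0.21 ± 0.10). Of 18 interneuron and GABA genes 3 were lower and 0 higher: the serotonin receptor Htr3a (-0.31 ± 0.08, unadjusted p = 0.00112), the peptide Vip (-0.22 ± 0.07, unadjusted p = 0.00443), both of interneurons from the caudal ganglionic eminence, and Gad2 (-0.12 ± 0.06). Vip ran from 884.01 to 1368.7 in heterozygotes and from 1187.2 to 1731.9 in wild-type mice. With the linear level 4 of the 18 interneuron and GABA genes were higher and 4 lower at an unadjusted p under 0.05. Of all 17375 genes tested, 1107 were higher and 900 lower in that fit.

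Immediate early genes, which neurons switch on with activity, had a median of 0.17 over 29 genes at equal marker level, with 4 higher (Jund, Jun, Nptx2, Egr3) and Klf4 lower (-0.29 ± 0.07), and a median of 0.004 in lithium mice. The share of all genes at an unadjusted p under 0.05 was 5.49% higher and 4.3% lower with the covariate, and 13.4% higher without it. Of 37 oxidative phosphorylation genes 6 were higher and 0 lower with a median of 0.03, among them Cox5b (0.24 ± 0.07) and Ndufb10 (0.14 ± 0.04). In lithium and fluoxetine mice the medians of this list were -0.02 and -0.03, against -0.004 and -0.002 over all genes tested. Of 79 cytosolic ribosomal protein genes 6 were higher and 0 lower, with a median of 0.05, and 25 were higher without the covariate. Among genes near known DYRK1A pathways, where 9.79% of all genes had an unadjusted p under 0.05, 0 of 12 calcineurin, RCAN and NFAT genes were higher or lower. Of 17 genes of the DREAM complex and of G1 control Ccnd1 (0.20 ± 0.07) and Cdkn1c (0.19 ± 0.09) were higher and Lin52 (-0.07 ± 0.03) was lower. Microglia, astrocyte, endothelial and stress lists had medians between -0.03 and 0.02.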

How the data were processed

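The authors deposited 1 table of normalised values per gene and library, a signal made of counts divided by 1 size factor per library. The tools named in the submitters' processing notes are DESeq2 1.19.11, Salmon 0.11.2 and R 3.6.0, and the build is GRCm38. Whole counts were recovered for 100% of vehicle values within 0.01 counts. Of 18088 identifiers 18077 had a symbol.

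Tests were run on log2(value + 1), a scale that makes changes of low genes look smaller, for the 17375 genes reaching a value of 10 in 4 or more of the 20 vehicle libraries. limma 3.58.1 in R 4.3.3, with a trend on the mean, was fitted to these libraries with sex and genotype (17 residual degrees of freedom), with the marker level added (16), or with 4 group means (16), and p-values were Benjamini-Hochberg adjusted over all genes. edgeR 4.0.16 and DESeq2 1.42.0 on recovered counts were alternatives. The 20 vehicle libraries and the lists were chosen with earlier results of these data known. Named genes were Dyrk1a, Doc2g and Cdhr1, the 10 of smallest p in each direction at equal marker level with at least median expression (without sex-linked or predicted genes), the 6 of smallest p in the sex difference and the 6 most like Doc2g under the same limits, and list members. The 6 of smallest p in the first fit, under the same limits, were added after no gene passed there. The fits in treated mice, the slopes, the omission of single libraries with the linear level and the genes named from them were chosen after seeing the data. For the genotype comparison, the limma step on simulated counts recovered 80% of genes changed 1.25-fold and 98% changed 1.5-fold. There were 4 false calls among 17240 genes. At equal marker level it recovered 78% and 99%, with 8 false calls among 17277 genes. Low genes were not among those changed. The counts simulated for the genotype comparison held no variation in bulb marker level, so that recovery does not describe the power of the fit to the real libraries. All 40 replicate pairs differed beyond sampling noise (chi-square per gene at least 3.05). Some members of the lists are not reported here.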

Additional observations from a re-analysis of the deposited data

Results flagged for a closer look

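In groups of 5 mice, 18 of 220 group values examined (31 genes and 24 list means) had 1 library far from the others, where chance gives about 1 in 20. Dyrk1a stood out at 2415 in heterozygous male replicate 2 and at 2327 in wild-type female replicate 2. Doc2g was at 850.6 in wild-type male replicate 1, where the other 4 had 115.4 to 170.7. Heterozygous female replicate 2 stood apart in Adgrb1 (11110), Crocc (1616), Luzp2 (6958) and Nr1d1 (2209), and in the list means of oxidative phosphorylation (-0.074) and blood (-1.654). Sart3 was at 1091 in heterozygous male replicate 4, Igfbp3 at 676.6 in wild-type male replicate 1, Agps at 1786 in wild-type female replicate 2 and Scara3 at 610.8 in wild-type male replicate 5.

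Among the other list means, given as log2 deviations from the mean of the 20 libraries, the striatal list was at 0.296 in heterozygous female replicate 5 and the oligodendrocyte precursor list at -0.151 in heterozygous female replicate 4. The choroid plexus list was at 0.931 in heterozygous male replicate 3, the interneuron list at 0.047 in wild-type male replicate 2 and the DYRK list at -0.018 in wild-type male replicate 1.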

How the results depend on the processing

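With sex as a block limma called 0 genes, as it did with a pseudocount of 5, no filter, a filter of 100, TMM factors, quantile normalisation and edgeR. It called 137 with 4 group means (added after seeing the data), 2111 with array weights and 2406 over all 59 libraries, and DESeq2 called 600. Leaving out 1 library gave 0 to 1506 calls: 1506 without wild-type female replicate 4, 61 without heterozygous male replicate 1 and 0 in the other 18 fits. At equal log2 marker level limma called 0 genes, and 2 with the linear level, with array weights, over all 59 libraries, or over all 59 with the linear level, while DESeq2 called 23; leaving out 1 library gave 0 to 1, the 1 being without heterozygous female replicate 4. The cause of these moves was not tested. In females the range was 0 to 1, the 1 without wild-type female replicate 5. In males it was 3488 (without heterozygous replicate 3) to 8399 (without replicate 1), with 3638 without replicate 4, against 6710, and 0 with the log2 or the linear level. The sex difference had 2899 calls over all 59 libraries, and 0 to 5320 with 1 library left out: 5320 without heterozygous male replicate 1, 2343 without heterozygous female replicate 2, 2064 without heterozygous male replicate 2, 1794 without wild-type female replicate 5 and 1 without wild-type male replicate 1. Deviations from the group mean were correlated between same-numbered heterozygous and wild-type mice of the same sex (10 pairs, correlation -0.467 to 0.156). These deviations include the bulb marker level, so they cannot decide whether a number marks mice handled together, and the labels do not say. With the replicate block limma called 2 genes, 5 at equal log2 level and 27 at equal linear level. Of the alternatives for single named genes 1087 stayed on their side of the threshold, 98 passed it and 0 changed sign.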

Other observations

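At equal bulb marker level, 18 of 17375 genes (0.104%) had an unadjusted p under 0.05 and the same sign in vehicle, lithium and fluoxetine mice, 11 higher and 7 lower in heterozygotes. They were chosen after their values were seen. Beside Ucp2, Dcaf7 and Dyrk1b, the higher genes held Rec8, a cohesin subunit known from meiosis (0.53, 0.57 and 0.58 in vehicle, lithium and fluoxetine mice), the transcription factor Rfx5 of antigen presentation genes (0.18, 0.19 and 0.25), the nuclear receptor coactivator Pnrc1 (0.18, 0.20 and 0.17), Mxd4, a partner of MAX (0.09, 0.20 and 0.13), and 2 genes of phosphoinositide 3-kinase signalling, Pik3r3 and Pik3ip1. Under vehicle Rec8 ran from 101.8 to 557.36 in heterozygotes and from 69.558 to 221.44 in wild-type mice, and its difference was 1.2 ± 0.31 without the covariate. The lower genes held Hmgcs1 (-0.17, -0.19 and -0.15) and Dpy19l3 (-0.17, -0.11 and -0.15).

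In a window of 5 Mb on each side of Dyrk1a on chromosome 16, chosen after seeing the data, 4 of 70 genes tested (5.71%) were higher and 0 lower at an unadjusted p under 0.05 at equal marker level, against 9.79% of all genes in either direction. The choroid plexus list, which holds Ttr, had a mean log2 deviation of 2.60 in wild-type female replicate 4, against -1.20 to 0.51 in the other wild-type females. Omp, the olfactory marker protein of sensory neurons whose axons end in the bulb, differed by 4.47 ± 1.21 in males and 0.44 ± 1.21 in females.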
